A study of Homo sapiens with 6 samples.

Results

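The cytosolic ribosomal protein genes were described in clones of the established human line KGN. KGN comes from a granulosa cell tumour of the ovary and is heterozygous for the C134W mutation of FOXL2, which encodes a transcription factor of the forkhead family. Members were protein-coding autosomal and X-linked genes whose GENCODE symbol is RPL or RPS plus a number, with RPLP0 to RPLP2 and RPSA and without RPS27L and the RPS6K kinases. They numbered 80 of 58336 genes in the tables, 31 of the small and 49 of the large ribosomal subunit. The choice used gene symbols alone and no measured value. FOXL2 WT/C134W libraries came from cells that kept the mutation (clones 3.11 and 44b, and a library named 3.11-44b). FOXL2 WT/WT libraries came from cells in which the mutation had been reverted with CRISPR/Cas9 (clones 44a and 4.72, and a library named 4.72-44a). All cells were grown in DMEM-F12 with 10% fetal bovine serum, and RNA was taken 30 h after cells were transfected, with what is not stated. Since 3.11-44b and 4.72-44a carry the names of 2 clones and may be mixes of them, genotypes were compared over the 4 single clones, 2 each. As the labels record editing only in the WT/WT samples, editing and genotype cannot be told apart. The labels do not say that libraries came from separate cultures, so p-values measure the spread between these samples, which may be technical.

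Ribosomal proteins are built into the small or the large subunit in fixed proportions, and unassembled protein is degraded, so the genes are usually expressed together at a high level. The large subunit carries the stalk of RPLP0, RPLP1 and RPLP2, which recruits the translation GTPases. Most ribosomal protein mRNAs begin with a C followed by an uninterrupted run of pyrimidines, the 5′ terminal oligopyrimidine (TOP) motif. Through this motif mTORC1 and the RNA-binding protein LARP1 control their translation, which a transcript count does not measure. Unassembled RPL5 and RPL11 bind the ubiquitin ligase MDM2.

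The feature that most members share at the sequence level stands at the transcription start. RefSeq start windows on GRCh38.p14 were found for 63 of the 80 members, with 78 annotated starts. At 1 or more of those starts, 46 of the 63 (73%) had C as the first base and C or T at each of the next 4. The same held for 5.16% of 27195 gene symbols in the same table. The hexamer CGGAAG, looked for on both strands in the 250 bases before the start, was present in 38 members (60.3%) and in 19.4% of all symbols. A letter match is a description and not a measured site. The windows below show the run in the most abundant member (RPL41), 2 stalk genes, genes described later, and the X-linked genes, with RPS4X and RPL10L as members without it. Each runs from 10 bases before to 20 bases from an annotated start, and capitals mark the pyrimidine run that begins at the start. For a gene with more than 1 annotated start, a start with the run was preferred, and then the longest run.
RPL41 (chr12:56116623-56116652, plus strand): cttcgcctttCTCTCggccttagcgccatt
RPLP1 (chr15:69452808-69452837, plus strand): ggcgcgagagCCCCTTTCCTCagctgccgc
RPLP2 (chr11:809957-809986, plus strand): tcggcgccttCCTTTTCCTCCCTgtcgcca
RPS6 (chr9:19380217-19380246, minus strand): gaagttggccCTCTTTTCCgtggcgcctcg
RPS19 (chr19:41860245-41860274, plus strand): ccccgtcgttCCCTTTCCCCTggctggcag
RPL28 (chr19:55385922-55385951, plus strand): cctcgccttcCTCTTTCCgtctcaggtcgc
RPL22 (chr1:6199576-6199605, minus strand): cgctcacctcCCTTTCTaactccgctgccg
RPL39 (chrX:119791611-119791640, minus strand): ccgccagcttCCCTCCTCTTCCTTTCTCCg
RPL36A (chrX:101391001-101391030, plus strand): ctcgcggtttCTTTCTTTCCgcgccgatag
RPL10 (chrX:154398367-154398396, plus strand): ggaggagcgcCTCTTTCCCTTCggtgtggt
RPS4X (chrX:72277229-72277258, minus strand): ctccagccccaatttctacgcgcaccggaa
RPL10L (chr14:46651762-46651791, minus strand): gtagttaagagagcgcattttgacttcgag
The first 10 windows were chosen to show the run, so their capitals begin with C by that choice. The length of the capitals in them runs from 5 bases in RPL41 to 19 in RPL39. The median log2 fold change from edgeR, with WT/C134W over WT/WT, was 0.04 over the 46 tested members with the run and 0.02 over the 16 without it.

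Each library held between 35332727 and 46613068 expected counts. RNA was checked against cell type markers. Of 18 granulosa cell markers, INHBA had 66.9 and 120.2 CPM in 3.11 and 44b and 201.7 and 154.8 CPM in 44a and 4.72 (CPM, counts relative to library size after TMM scaling), and 12 passed the filter on low counts. The defining genes FSHR, GATA4, WT1 and AMHR2 had 0 counts in all 6 libraries, and CYP19A1 did not exceed 0.29 CPM. In contrast, NR5A1, AMH, FST, KRT8 and IRX3 of the same list were detected in all 6 libraries. NR5A1 had 37.2 and 37.46 CPM in 3.11 and 44b and 43.63 and 50.05 CPM in 44a and 4.72. AMH had 18.28 and 36.56 CPM against 24.91 and 20.99 CPM, and FST 51.15 and 116.3 CPM against 130.2 and 157.1 CPM. The summed level of the granulosa list was 594 and 1591 CPM in clones 3.11 and 44b, and 1529 and 1928 CPM in 44a and 4.72. KRT18 made up most of that sum, with 318.5 and 1170 CPM in 3.11 and 44b and 982 and 1417 CPM in 44a and 4.72. Without KRT18 the sums were 275.7 and 420.2 CPM in 3.11 and 44b and 546.9 and 510.7 CPM in 44a and 4.72. Of markers of other cells, the leukocyte genes CD3E and LYZ and the endothelial CDH5 were at 0. The summed leukocyte list was 68.2 and 67.4 CPM in 3.11 and 44b and 72.6 and 75.2 CPM in 44a and 4.72, nearly all of it CD68 (63.8 to 73.6 CPM over the 6 libraries), and PTPRC did not exceed 2.95 CPM. The summed endothelial and epithelial lists did not exceed 14.9 CPM and 4.72 CPM. The fibroblast gene COL1A1 had 10730 and 9843 CPM in the WT/C134W clones and 25220 and 20810 CPM in the WT/WT clones, and its part in the results was not tested. Of the 4 tested genes of the fibroblast and theca list, 3 had a negative log2 fold change and 1, PDGFRA, a positive one. PDGFRA had 82.6 and 49.2 CPM in 3.11 and 44b and 60.9 and 38.1 CPM in 44a and 4.72. The theca genes CYP17A1 and INSL3 did not exceed 0.44 CPM. Mitochondrially encoded genes took 5.12% to 6.71% of counts. FOXL2 itself had 9.31 and 10.1 CPM in 3.11 and 44b against 7.41 and 4.83 CPM in 44a and 4.72 (edgeR adjusted p = 0.726), and a gene count does not show the allele.

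The members were among the most abundant transcripts of every clone. Their summed level was 106831 TPM in 3.11 and 128981 TPM in 44b, against 100895 TPM in 44a and 105382 TPM in 4.72 (TPM is the deposited transcript abundance, scaled for length and library). This was 10.7% and 12.9% of all transcripts in the WT/C134W clones and 10.1% and 10.5% in the WT/WT clones. The mRNAs are short, with a median effective length of 474 bases against 2046 bases over protein-coding genes tested. The share of expected counts, which is not scaled for length, was 3.77% and 4.65% in 3.11 and 44b and 3.51% and 3.54% in 44a and 4.72. Of the 80 members, 36 were among the 100 genes of highest mean TPM over the 4 clones and 69 among the first 200.

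Levels of the 78 members with enough counts to be tested had a median of 1278 TPM, and 56 exceeded 1000 TPM. RPL41, which encodes the smallest ribosomal protein, was the highest, with 4099.8 and 4655 TPM in 3.11 and 44b against 3809 and 4157 TPM in 44a and 4.72. RPS27, a small subunit protein with a zinc finger, followed with 2883 and 3494 TPM in the WT/C134W clones and 3069 and 2782 TPM in the WT/WT clones. The genotypes overlapped for both genes. Next by mean over the 4 clones came RPLP1 (2767 TPM), RPS2 (2645 TPM) and RPLP0 (2592 TPM). Apart from RPL39L, the lowest tested members were RPL22 and RPS28. RPL22, a large subunit protein with roles in T cell development, had 474 and 519 TPM in 3.11 and 44b and 403 and 378 TPM in 44a and 4.72. RPS28 of the small subunit had 600.1 and 663 TPM in the WT/C134W clones and 439 and 539 TPM in the WT/WT clones. Without RPL39L, the highest mean was 9.43 times the lowest across 77 members. Across the 78 members, with the far lower RPL39L included, log2 TPM of any 2 clones correlated with Pearson's r of 0.982 to 0.99. This r is a description over genes that share their length and base composition in every library.

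**Figure D1:**
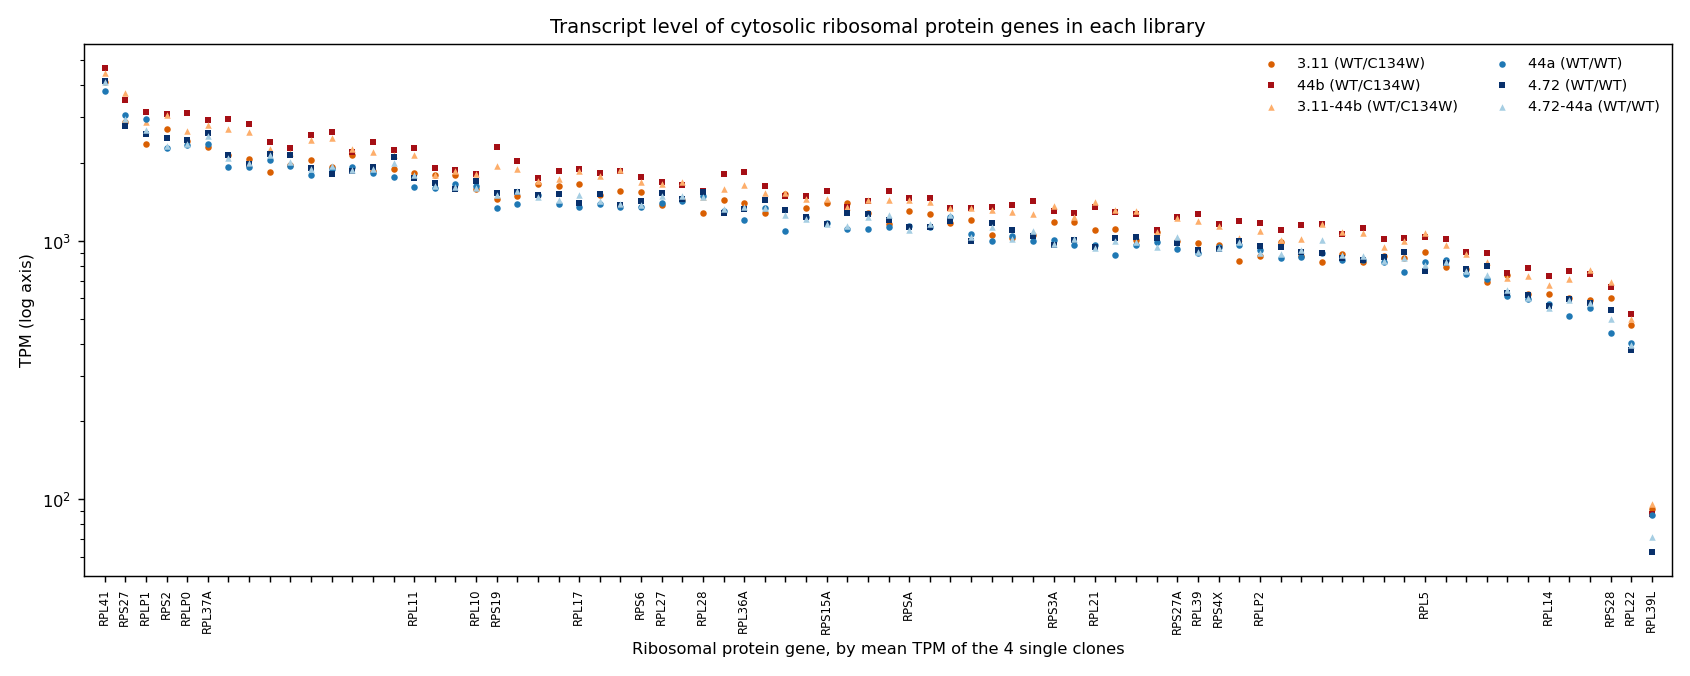
Level in TPM (log axis) of 76 of the 78 tested ribosomal protein genes (names are given for genes in the text), ordered by their mean over the 4 single clones, in each of the 6 libraries. The order of genes is alike in all libraries, and RPL39L stands apart at the low end. Clone 44b (dark red squares) is the highest single clone for 73 of the genes drawn, against 26.7% of all genes tested.

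Within this pattern a single WT/C134W clone, 44b, stood above the others. On the CPM scale 44b was the highest of the 4 clones for 66 of 78 members, against 21.6% of all 16416 genes tested. It was the lowest for 0 members, against 19.6% of all genes. The other WT/C134W clone, 3.11, was the lowest for 55 members (70.5%), against 32.1% of all genes. By TPM 3.11 was the lowest for 17 members (21.8%), near the 23.6% of all genes, and 44a for 44 (56.4%), against 30.4%. On that scale 44b was still the highest for 74 members (94.9%), against 26.7% of all genes. The level in 44b exceeded that in 3.11 for all 78 members, with log2 differences from 0.01 to 0.66 and a median of 0.32. The same difference had a median of 0.00 over all genes tested, with quartiles at -0.36 and 0.32. Between the WT/WT clones, 4.72 exceeded 44a in 68 members with a median log2 difference of 0.09. The names of clones 44a and 44b share a stem. In most members 44a was below 4.72, and in all of them 44b was above 3.11. Whether 44a and 44b are related was not tested. Relative to the mean of the 4 clones, the median member stood at -0.15 log2 units in 3.11 and 0.17 in 44b, and at -0.06 in 44a and 0.03 in 4.72. In the joined libraries it stood at 0.12 in 3.11-44b and -0.01 in 4.72-44a. The level in 3.11-44b lay between those of 3.11 and 44b for 63 members, and that in 4.72-44a between those of 44a and 4.72 for 51. In bulk RNA a different amount of these transcripts per cell and a different mix of cells cannot be told apart.

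**Figure D2:**
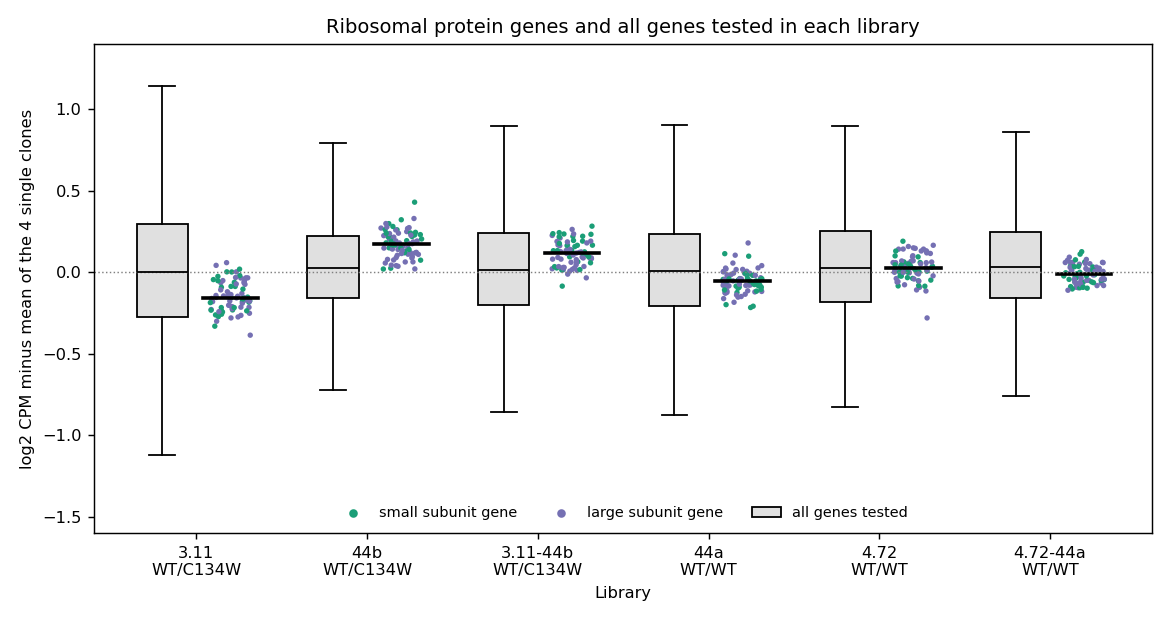
Log2 CPM of each ribosomal protein gene (points, black bar at the median) and of all genes tested (grey boxes with quartiles, whiskers to 1.5 times the quartile range, outlying genes not drawn) minus the mean of the 4 single clones, by library. On this scale the members sit as a narrow group with medians of -0.15 in 3.11 and 0.17 in 44b, on either side of both WT/WT medians.

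Between the genotypes, no ribosomal protein gene passed the test. In edgeR's quasi-likelihood test 0 of 78 members had an adjusted p under 0.05, beside 0% of 16416 genes tested. No other fit called a member. Of all genes tested, DESeq2 called 1.72%, limma voom 0%, edgeR over all 6 libraries 3.18%, edgeR with no low-count filter 2.73% and edgeR with a replicate block 0.0305%. An unadjusted p under 0.05 was found for 0 members and for 7.57% of all genes tested. Log2 fold changes, WT/C134W over WT/WT, had a median of 0.03 over members and 0.01 over all genes, and the highest of a member was 0.23 (RPS19). The median size of the log2 fold change, sign ignored, was 0.09 over members, against 0.29 over all genes tested and 0.21 over 1796 genes of at least 100 CPM. The 95% intervals of all 78 members lay within 1 log2 unit of 0, with an upper bound of 0.87 for RPS19, so they hold changes of under 2-fold. A positive fold change was found for 53 of 78 members, against 50.6% of all genes. That count was 14 without 44b, 75 without 3.11 and 35 without 44a.

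The median member lay above 0 on each scale with all 4 clones, and its size moved with the scaling, as did the median of all genes. By TPM, both WT/C134W clones exceeded both WT/WT clones in 44 members, beside 30.6% of all genes tested, and were below both in 0, beside 11.3%. With CPM scaled by TMM the counts were 7 members, beside 19.9%, and 2 members, beside 19.7%. The summed TPM averaged 117906 ± 15662 in WT/C134W and 103138 ± 3172 in WT/WT (SD, n = 2 each), a log2 ratio of 0.19, and 0.05 without 44b. In an exact two-sided permutation test over the 4 clones its p was 0.333, the smallest that this design allows. Summed CPM gave a log2 ratio of 0.02. In the limma fit on log2(TPM + 1), 75 members were positive with a median of 0.20, where the median of all genes was itself 0.15. With library totals alone, 77 members were positive with a median of 0.26 and all genes had a median of 0.23. The 50 most abundant genes of each library took 21.5% and 20.5% of counts in 3.11 and 44b. In 44a and 4.72 they took 25.6% and 27.4%. The log2 ratio of summed TPM was lower without the 50 most abundant genes outside the members, as given in the closing section. Beyond that, the part of abundant genes in this shift was not tested.

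**Figure D3:**
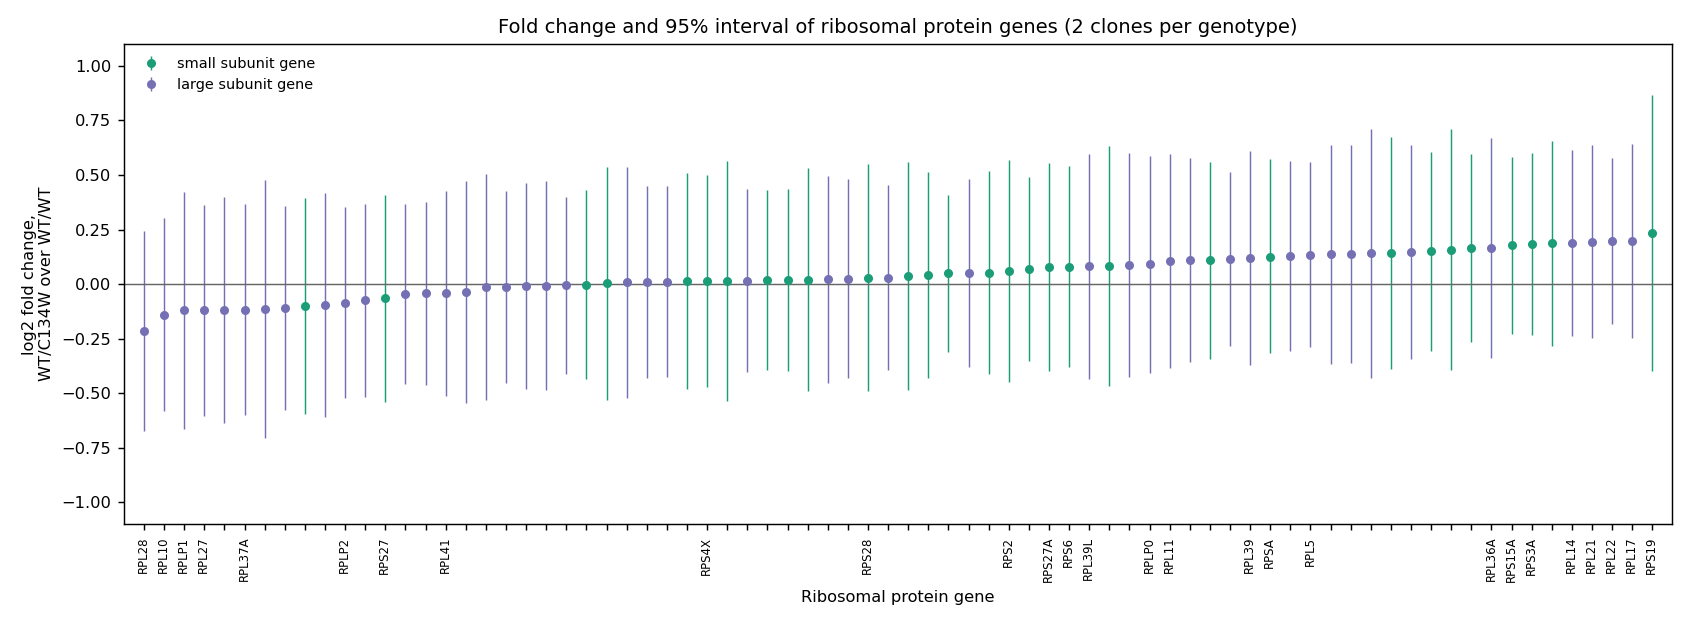
Log2 ratio of WT/C134W to WT/WT (edgeR, 2 clones per genotype) of 76 of the 78 tested ribosomal protein genes with the 95% interval, ordered by value and coloured by subunit. Every interval includes 0, and the highest value is 0.23 for RPS19.

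Among small subunit genes, 27 of 31 lay above 0, the median log2 fold change being 0.05. RPS19, the gene most often mutated in Diamond-Blackfan anaemia, had 326.5 and 516 CPM in the WT/C134W clones and 334 and 383 CPM in the WT/WT clones. Clone 44b alone was high for RPS19, and its difference between 44b and 3.11, 0.66 log2 units, was the widest of all members. With errors as SE from the F statistic, RPS3A (0.18 ± 0.17) and RPS15A (0.18 ± 0.16) had log2 fold changes above 0 with no overlap between genotypes. RPS6, the substrate of the S6 kinases, had 777 and 929.5 CPM in 3.11 and 44b and 782 and 832 CPM in 44a and 4.72. RPSA, also known as the laminin receptor, had 759 and 888 CPM in 3.11 and 44b against 747 and 761.5 CPM in 44a and 4.72. RPS27A, which is made as a fusion with ubiquitin, had 363 and 469.6 CPM in WT/C134W and 380.4 and 408 CPM in WT/WT. For RPS6, RPSA and RPS27A the level in 3.11 was within or below the range of the WT/WT clones.

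Among 47 tested large subunit genes, 26 lay above 0, the median being 0.01. RPL28 was the lowest of the large subunit, with 406 and 501 CPM in 3.11 and 44b against 507 and 547 CPM in 44a and 4.72. Both WT/C134W clones were below both WT/WT clones in RPL28, 1 of the 2 members for which this held. RPL22 had the smallest p of the members above 0, with 255 and 269.6 CPM in the WT/C134W clones and 219 and 238 CPM in the WT/WT clones (log2 fold change 0.20 ± 0.15, edgeR adjusted p = 0.842). RPL17 (0.20 ± 0.18), RPL21 (0.19 ± 0.18), RPL14 (0.19 ± 0.17) and RPL7 (0.11 ± 0.16) also had no overlap between genotypes in this direction. RPL10, which joins the large subunit late in its assembly, was at -0.14 ± 0.18, RPL27 at -0.12 ± 0.20 and RPL37A at -0.12 ± 0.20. The median over small subunit genes exceeded that over large subunit genes by 0.04 log2 units, and by 0.08 without 3.11.

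The stalk genes lay on both sides of 0. RPLP0, the anchor of the stalk, had 1245 and 1556 CPM in 3.11 and 44b and 1279 and 1348 CPM in 44a and 4.72. RPLP1 had 776 and 1069 CPM in WT/C134W and 1027 and 977 CPM in WT/WT, and RPLP2 had 289 and 359 CPM against 342 and 345 CPM. Log2 fold changes were 0.09 ± 0.20, -0.12 ± 0.22 and -0.08 ± 0.18 (SE) for RPLP0, RPLP1 and RPLP2. For each of the 3 genes 3.11 was the lowest clone and 44b the highest.

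RPL5 and RPL11, which form a particle with the 5S ribosomal RNA, lay above 0 with intervals that include it. RPL5 had 482 and 555 CPM in 3.11 and 44b and 488 and 456 CPM in 44a and 4.72 (log2 fold change 0.13 ± 0.17). RPL11 had 561 and 718 CPM against 566 and 623.5 CPM (0.10 ± 0.20). Their partner MDM2, a ubiquitin ligase, had 63.9 and 85.8 CPM in the WT/C134W clones and 53.0 and 38.7 CPM in the WT/WT clones (0.71 ± 0.23). The adjusted p of MDM2 in edgeR's test was 0.644. Of the 4 tested genes of this list 0 passed, beside 0% of all genes tested. CDKN1A, which blocks the cell cycle, had 241.6 and 559 CPM in 3.11 and 44b and 172 and 240.3 CPM in 44a and 4.72 (0.96 ± 0.44), and MDM4 was at 0.39 ± 0.19. CDKN2A had 0 counts in all 6 libraries.

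Of the 4 X-linked members, RPS4X had 843 and 1060 CPM in 3.11 and 44b and 941 and 945 CPM in 44a and 4.72, RPL10 609 and 708 CPM against 703 and 747 CPM. RPL36A had 253 and 344 CPM in WT/C134W and 252 and 279.8 CPM in WT/WT, and RPL39 148 and 203 CPM against 158 and 165 CPM. Their log2 fold changes, between -0.14 and 0.17, lay within the range of the autosomal members.

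The make-up of the group was compared by giving each gene as a share of the summed TPM of the members. The share was higher in both WT/C134W clones for 22 members and lower in both for 16. The same ratio was higher in both for 14.3% and lower in both for 19.8% of all genes tested. The shares of the members sum to a fixed total and the ratios of all genes do not, so these percentages are not a like baseline. The highest difference in log2 share was 0.19, for RPS28. RPL28 made up 1.2% and 1.21% of the summed TPM in 3.11 and 44b against 1.48% and 1.46% in 44a and 4.72. RPL28 had near equal shares in the clones of a genotype, although the summed level of the members differed between 3.11 and 44b. RPS28 made up 0.562% and 0.514% in the WT/C134W clones and 0.435% and 0.512% in the WT/WT clones, so its clones almost met. Its log2 fold change by counts was 0.03. The ratio of summed small to summed large subunit TPM was 0.606 and 0.613 in WT/C134W and 0.588 and 0.584 in WT/WT. No test was made of shares.

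Tissue-restricted paralogues were low or not detected. RPL39L, a paralogue of RPL39 known from testis, had 91.4 and 87.4 TPM in 3.11 and 44b and 86.9 and 62.5 TPM in 44a and 4.72, where RPL39 had 978 and 1268 TPM against 899 and 923 TPM. Clone 4.72 was low for RPL39L. RPL3L, known from heart and skeletal muscle, had 0 counts in 3.11, 44b and 44a 2 counts in 4.72 and 7 in 4.72-44a. RPL10L, a testis-expressed copy of RPL10, had 0 counts in every library, which allows up to 0.0849 CPM in the shallowest library (3 counts, counting error only). These 2 were the members that did not pass the filter on low counts. Outside the symbol rule, RPS27L, a paralogue of RPS27, had 103 and 133 CPM in the WT/C134W clones against 82.2 and 78.5 CPM in the WT/WT clones (log2 fold change 0.55 ± 0.18, edgeR adjusted p = 0.638). RPL22L1, which can replace RPL22, had 91.1 and 92.5 CPM against 98.6 and 59.4 CPM, with the genotypes overlapping. RPL26L1, RPL7L1 and RPL36AL were at -0.35 ± 0.26, 0.11 ± 0.17 and 0.06 ± 0.17.

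Copies of these genes limit the gene-level values. The tables hold 1149 ribosomal protein pseudogenes, of which 345 had a count in a single-clone library. Their summed counts equalled 2.78% and 2.69% of the members' counts in 3.11 and 44b and 2.59% and 2.62% in 44a and 4.72. For 5 members the pseudogene counts reached at least 10% of the gene's own: RPL9 (28.7%), RPL23A (25.6%), RPL22 (21.2%), RPS2 (17.5%) and RPL21 (11.6%). Reads that fit a gene and its copy were shared out, so these 5 are uncertain. RPL22 and RPL21 are 2 of the 7 members that were higher in both WT/C134W clones. The processed pseudogene RPS2P5 had the most, 7702 and 11266 counts in 3.11 and 44b and 8409 and 8375 in 44a and 4.72, and like most members it was highest in 44b. Readthrough genes were low. RPL17-C18orf32 had 535 and 668 counts in 3.11 and 44b and 314 and 502 in 44a and 4.72. RPS10-NUDT3 had 550 and 705 counts against 705 and 677, and RPL36A-HNRNPH2 had 230 and 0 against 0 and 10. Like RPL17, RPL17-C18orf32 was higher in both WT/C134W clones.

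Related gene lists held 0 calls by edgeR, beside 0% of all 16416 genes tested. FAU, a ribosomal protein made as a fusion with a ubiquitin-like part, and RACK1, a small subunit scaffold, had log2 fold changes of -0.03 and 0.02. Both were highest in 44b, as most members were. Other TOP mRNAs had a positive fold change in 10 of 17 (median 0.03), among them EIF3E at 0.45 ± 0.15, a subunit of initiation factor eIF3. They were highest in 44b in 6 of 17, and their median log2 difference between 44b and 3.11 was 0.03, against 0.32 over the members. Ribosome biogenesis factors were below 0 in 25 of 36 (median -0.10), with 44b above 3.11 by a median of 0.33. DKC1, a pseudouridine synthase of the ribosomal RNA, had 72.5 and 85.8 CPM in WT/C134W and 106 and 92.7 CPM in WT/WT (-0.33 ± 0.17). RIOK2 (0.39 ± 0.17) and EFL1 (0.36 ± 0.17), which act late in subunit maturation, lay on the other side. snoRNA host RNAs with a TOP start were below 0 in 6 of 8 (median -0.10), with SNHG8 at -0.28 ± 0.24. Chaperones of ribosomal proteins had a median of -0.10, from GRWD1, which escorts RPL3, at -0.26 ± 0.21 to BCCIP at 0.35 ± 0.18.

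Among regulators, LARP1 had 236 and 213 CPM in 3.11 and 44b against 299 and 268 CPM in 44a and 4.72 (-0.34 ± 0.16, edgeR adjusted p = 0.70). RPS6KB1, which encodes an S6 kinase, had 40.6 and 32.04 CPM in WT/C134W and 28.9 and 25.4 CPM in WT/WT (0.42 ± 0.20). EIF4EBP1, an inhibitor of cap-dependent initiation, was at -0.51 ± 0.28. The mTORC1 list had 7 of 16 tested genes above 0. MYC, a transcription factor that drives ribosome production, had 71.5 and 80.2 CPM in 3.11 and 44b and 78.6 and 105.6 CPM in 44a and 4.72 (-0.28 ± 0.20). MNT, its antagonist, had 16.9 and 18.96 CPM against 26.8 and 26.1 CPM (-0.56 ± 0.18, edgeR adjusted p = 0.633). MXI1 of the same list lay on the other side at 0.81 ± 0.51, with the genotypes overlapping. Of the 6 tested genes of the MYC list, 2 were above 0 and 4 below. RNA polymerase I genes were above 0 in 7 of 11 (median 0.01). They ran from UBTF at -0.17 ± 0.16 to TAF1B at 0.58 ± 0.32, with TAF1A at 0.55 ± 0.48. Mitochondrial ribosomal proteins, which are encoded in the nucleus and build a separate ribosome, were above 0 in 48 of 78 (median 0.10). Of these 78, 24 were higher in both WT/C134W clones, beside 19.9% of all genes tested, and 4 were lower in both, beside 19.7%. The difference from the cytosolic members was not tested. MRPS28, of the small mitochondrial subunit, had 17.3 and 21.2 CPM in the WT/C134W clones against 9.22 and 10.9 CPM in the WT/WT clones (0.93 ± 0.24, edgeR adjusted p = 0.593).

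**Figure D4:**
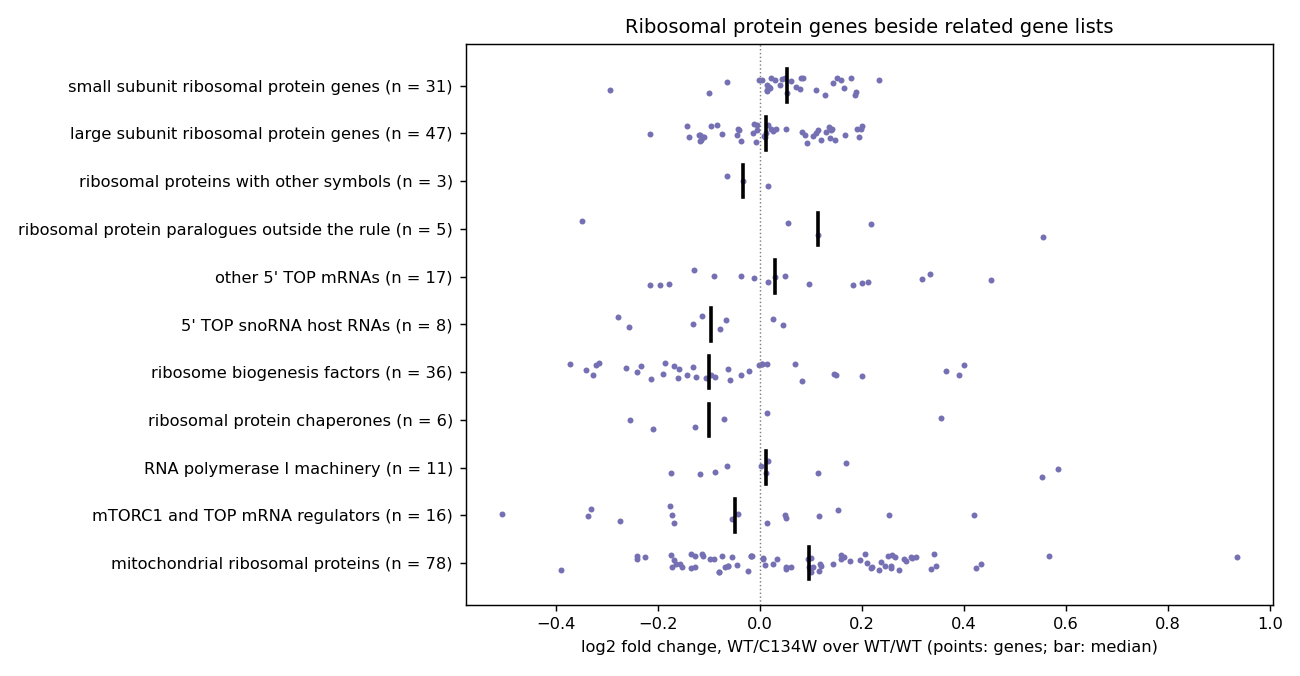
Log2 ratio of WT/C134W to WT/WT (edgeR, 2 clones per genotype) of each tested gene of the small and large ribosomal subunits and of 9 related lists, with a bar at the median of each list. Ribosomal protein genes reach up to 0.23, and the mitochondrial ribosomal proteins reach from -0.39 to 0.93.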

How the data were processed

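Groups came from the genotype labels. Expected counts are, per the file headers, RSEM's estimated counts of reads per gene, which the authors deposited with reads of several genes shared out. TPM was deposited by the authors, scaled by effective length, and FPKM was not used. Effective length is as the file headers give it. Tools listed in the submitters' processing notes, with no role, are RSEM 1.3.1, DESeq2 1.26.0, R 3.6.3, Picard 2.8.1 and STAR 2.7.6a, and the build listed is a mouse one although the gene IDs are human. Sources used here do not state the human build, the annotation release or the strand setting, so antisense reads may be included. GENCODE release 29 (GRCh38) named 58216 of 58336 gene IDs, and start windows came from RefSeq.

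Rounded expected counts went through filterByExpr and TMM scaling. All genes left were tested in R 4.3.3 by the quasi-likelihood test of edgeR 4.0.16, and Benjamini-Hochberg adjusted p-values under 0.05 were called. Fold changes divide WT/C134W by WT/WT. The SE of a fold change is its size divided by the square root of edgeR's F, and 95% intervals use the fit's degrees of freedom. Both share information on spread across genes. The fits were tested on simulated data. Alternatives were DESeq2 1.42.0, limma 3.58.1 (voom and log2 TPM), other scalings and filters, each clone left out, a block and all 6 libraries. Members named were those of smallest p (6 in each direction), of highest and lowest TPM (5 each), and a written list of roles. From other lists, all genes of short lists and up to 3 of smallest p were eligible. RPL7, RPL9, RPL23A, MYC, granulosa markers other than INHBA and the pseudogene and readthrough genes were named after their values were seen. The members and lists were chosen with earlier results of these data known. Y-linked genes were not used. Values of some genes are not reported here.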

Additional observations from a re-analysis of the deposited data

How the results depend on the processing

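None of the 78 tested members was called (0 in each) under the 16 alternatives to the edgeR fit, and for the 29 named members with a test none gained a call. The median log2 fold change of the members, 0.03, was 0.26 with library totals alone and ran from -0.15 (without 44b) to 0.20 (without 3.11) when 1 clone was left out. Left-out fits leave 1 clone in a genotype, which is taken to vary as the other genotype does. The number of members above 0, 53, ran from 14 to 75 over the same fits, and the difference between subunit medians, 0.04, from 0.008 to 0.08. The log2 ratio of summed TPM, 0.19, ran from 0.05 to 0.32 without 1 clone, was 0.25 as a share of counts and 0.11 without the 50 most abundant other genes. Signs of uncalled named members changed for 10 of 29 without 44b, 9 with library totals alone and 7 on the TPM scale. The cause was not tested. With a replicate block that paired 44a with 44b and 4.72 with 3.11, the median was 0.02 and 49 members were above 0. The labels do not state that pairing. The summed CPM and the counts above 0 were added after the data were seen.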
